A study of Homo sapiens with 6 samples.

Results

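Regulators of G-protein signalling (RGS proteins) were examined in KM12, a human colorectal cancer line long kept in culture, through the transcripts of 9 RGS genes among the 27134 genes of the deposited table. The 9 genes are RGS2, RGS3 and RGS16 of the R4 class, RGS17, RGS19 and RGS20 of the RZ class, and RGS10, RGS12 and RGS14 of the R12 class, found by their Ensembl identifiers. They were picked by name with the comparison of these same libraries already known, so their differences between groups are described here and no p-value is given for them. RNA sequencing libraries were 3 of KM12 cells labelled as overexpressing CDO1 (cysteine dioxygenase type 1) and 3 of mock controls, all at passages 10 to 15. The labels do not say how CDO1 was introduced, whether each group is a clone or a pool, or whether the 3 libraries of a group were grown apart, so every p-value below is set against a spread that may be technical. In such bulk libraries, fewer cells that carry a transcript and less of it per cell cannot be told apart.

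Receptors coupled to heterotrimeric G proteins load the G alpha subunit with GTP, which frees it from the G beta and gamma subunits. RGS proteins bind the GTP-loaded alpha subunit through a shared domain and speed up GTP hydrolysis, which ends the signal of both partners. The classes differ in their partners: R4 proteins are mostly short and act on the Gi and Gq families, RZ proteins carry a string of cysteines near their start and act on Gi proteins and most readily on Gz, and R12 proteins act on Gi proteins. RGS12 and RGS14 also hold a GoLoco motif, which keeps Gi alpha subunits in their GDP-bound state, and domains that bind Ras-family proteins. RGS16, with RGS4 and RGS5, is also a substrate of ADO, a thiol dioxygenase related to CDO1, which oxidises a cysteine at the start of the protein and so marks it for degradation. Only transcripts were measured here, not proteins.

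Values are normalised counts, that is, reads per gene divided by a size factor of the library, as the authors deposited them. Reads per library came to between 17516640 and 22198173, and each pair of libraries of a group differed by more than sampling noise. CDO1 itself had 2333 to 2484 normalised counts where it was overexpressed and 68.1, 0 and 0 in mock replicates 1, 2 and 3. All 7 markers of colorectal epithelium looked up were expressed, among them EPCAM, KRT8 and CDX2, at group means of 145 or more. These 7 were all higher with CDO1, summing to 164742 to 176454 in CDO1 libraries and 115858 to 120657 in mock libraries. The 2 fibroblast markers in the table, COL1A1 and PDGFRB, summed to 130.4 to 151 with CDO1 and 204 to 293 in mock, where COL1A1 fell (log2 fold change -1.12, limma adjusted p = 1.69e-06) and PDGFRB did not pass. The 3 endothelial markers summed to 45.4 to 71.2 with CDO1 and 25.4 to 82.4 in mock, with CDH5 at 0 in 3 of 6 libraries. The 82.4 is mock replicate 1, where KDR had 47.5, against 0.975 and 0 in mock replicates 2 and 3. Immune markers were not analysed here. The part of these marker shifts in the RGS values was not tested.

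In CDO1 libraries 5 of the 9 RGS genes were lower with no overlap between groups, which were RGS2, RGS12, RGS14, RGS17 and RGS20. Among all 21775 genes tested, groups did not overlap in 37.1%, and in 18.9% with CDO1 lower. RGS19 was lower on average with groups that overlapped, while RGS3, RGS10 and RGS16 overlapped with group means close to each other. In the fit across all genes (limma on log2 of the normalised count plus 1, adjusted p under 0.05) 6 of the 9 passed, all lower in CDO1 libraries, beside 24.0% of all genes in either direction and 12.7% in that direction. RGS14, RGS17 and RGS20 also had a log2 fold change of -1 or below, beside 4.52% of all genes. Since the genes were picked with these values known, nothing is read from that share. The median log2 fold change (CDO1 minus mock) was -0.47 over the 9 genes and -0.00 over all genes tested.

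**Figure D1:**
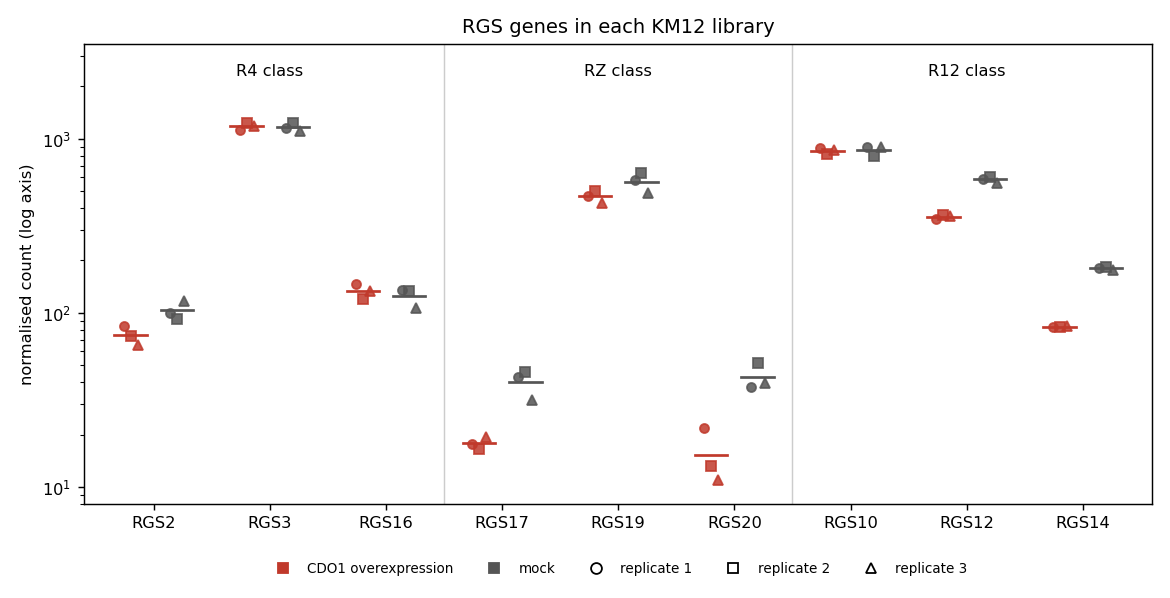
Normalised count on a log axis of the 9 RGS genes in each library, CDO1 overexpression in red to the left of mock in grey, with a shape for each replicate and a line at each group mean, grouped by RGS class. RGS14 lies at 82.8 to 83.6 in CDO1 libraries and at 176 to 183 in mock libraries, while the groups of RGS3, RGS10, RGS16 and RGS19 overlap.

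RGS14 and RGS17 stood at less in every CDO1 library and have a single start site each in the RefSeq promoter table, as do RGS2 and RGS16 of the R4 class. Their upstream sequences are shown because the transcripts of RGS14 and RGS17 differed by nearly the same factor between groups and that of RGS16 did not. Of the 9 genes, 8 matched the table, and RGS20 did not. Each window covers the 250 bases before the RefSeq start (GRCh38.p14), printed 5′ to 3′ on the gene's strand as far as it lies outside the GENCODE gene, and capitals mark motif matches on either strand. The motifs were the CCAAT box, the GC box with the letters GGGCGG, and the core of the cAMP response element, which reads TGACG. Bases printed run along chr5:177357674-177357836 (plus strand) for RGS14, chr6:153131283-153131532 (minus) for RGS17, chr1:192808789-192809038 (plus) for RGS2 and chr1:182604409-182604639 (minus) for RGS16.
RGS14: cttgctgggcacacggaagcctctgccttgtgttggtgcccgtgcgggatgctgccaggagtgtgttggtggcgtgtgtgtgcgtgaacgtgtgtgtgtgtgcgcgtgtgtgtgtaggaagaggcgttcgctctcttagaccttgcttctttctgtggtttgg
RGS17: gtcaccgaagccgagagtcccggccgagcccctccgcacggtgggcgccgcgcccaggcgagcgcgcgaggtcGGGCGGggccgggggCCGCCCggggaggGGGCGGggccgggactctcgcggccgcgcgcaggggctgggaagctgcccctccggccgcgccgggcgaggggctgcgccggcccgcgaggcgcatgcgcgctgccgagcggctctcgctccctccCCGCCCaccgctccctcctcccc
RGS2: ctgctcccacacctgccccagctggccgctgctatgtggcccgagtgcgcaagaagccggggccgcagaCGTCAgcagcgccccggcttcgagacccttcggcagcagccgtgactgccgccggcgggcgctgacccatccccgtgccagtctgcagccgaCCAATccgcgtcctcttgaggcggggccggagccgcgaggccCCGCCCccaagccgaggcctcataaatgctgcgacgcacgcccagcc
RGS16: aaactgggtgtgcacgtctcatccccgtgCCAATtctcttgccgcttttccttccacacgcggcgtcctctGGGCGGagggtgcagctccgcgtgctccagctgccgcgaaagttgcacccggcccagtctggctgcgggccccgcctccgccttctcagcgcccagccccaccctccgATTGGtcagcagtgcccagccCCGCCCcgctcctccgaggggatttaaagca

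The windows of RGS14 and RGS17 differed in GC content, CpG count and GC boxes, and neither held CCAAT or TGACG. Their sequences were not compared further, and a link to the transcript levels was not tested. RGS17 has a GC content of 84.0%, above that of 99.3% of 35116 windows, with 42 CpG dinucleotides and 4 GC boxes, the nearest starting 23 bases before the RefSeq start site. That start of RGS17 lies upstream of the GENCODE gene and was not found in its GENCODE transcripts, while the starts of RGS14, RGS2 and RGS16 were. RGS14 has a GC content of 56.8%, near the median of all windows (58.0%), with 13 CpG dinucleotides and no match to any motif searched. RGS2 holds 1 GC box, 1 CCAAT and 1 TGACG, and RGS16 holds 2 GC boxes and 2 CCAAT, at GC contents of 72.8% and 68.4%. None of these 4 windows holds TATAAA. Of all windows of this length, 42.6% hold a GC box, 32.0% CCAAT, 21.2% TGACG and 10.7% TATAAA, and a match describes letters, not a site in use.

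In the R12 class RGS12 and RGS14 were lower with CDO1 and RGS10 was not. RGS14 (ENSG00000169220, GRCh38 chromosome 5, 177357837 to 177372601), the GoLoco protein with a pair of Ras-binding domains, had 82.8, 83.2 and 83.6 normalised counts in CDO1 replicates 1, 2 and 3, from 84, 76 and 91 reads, and 182, 183 and 176 in mock replicates 1, 2 and 3, from 203, 188 and 156 reads. Each CDO1 library was below every mock library. The 3 CDO1 libraries lay closer together than the counting error of 76 to 91 reads, so their SD understates the error. Means were 83.2 ± 0.373 with CDO1 and 181 ± 3.63 in mock (SD, n = 3 each), a ratio of 0.461 and a log2 fold change of -1.11 ± 0.12 (SE).

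RGS12 (ENSG00000159788, chromosome 4, 3293028 to 3439913), the longest RGS protein of the class, with PDZ, phosphotyrosine-binding, Ras-binding and GoLoco parts, had 344, 363 and 358 normalised counts in the CDO1 libraries and 588, 602 and 560.0 in the mock libraries. All CDO1 values were below all mock values. Its means were 355 ± 9.99 and 583 ± 21.3 (SD, n = 3 each) in CDO1 and mock libraries, a ratio of 0.609 and a log2 fold change of -0.71 ± 0.07 (SE). RGS10 (ENSG00000148908, chromosome 10, 119499828 to 119542708), which has little beside its RGS domain, had 887, 819 and 859 in the CDO1 libraries and 900, 797 and 894 in the mock libraries. The values of the groups lay among each other, with means of 855 ± 34.4 and 863 ± 57.8 in CDO1 and mock libraries and a log2 fold change of -0.01 ± 0.07 (SE).

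In the RZ class all 3 genes had lower means with CDO1, by unequal factors. RGS20 (ENSG00000147509, chromosome 8, 53851808 to 53959303), a regulator selective for Gz, had 21.7, 13.1 and 11.02 normalised counts in the CDO1 libraries, from 22, 12 and 12 reads, and 37.6, 51.7 and 39.6 in the mock libraries, from 42, 53 and 35 reads. CDO1 replicate 1 was the highest of its group and still below every mock library. The ratio of means was 0.356, at 15.3 ± 5.65 with CDO1 and 43.0 ± 7.61 in mock (SD, n = 3 each), and the log2 fold change of -1.47 ± 0.27 (SE) was the lowest of the 9.

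RGS17 (ENSG00000091844, chromosome 6, 153004459 to 153131249), the close relative of RGS20, had 17.7, 16.4 and 19.3 normalised counts in the CDO1 libraries and 43.0, 45.8 and 31.7 in the mock libraries. These came from 18, 15 and 21 reads with CDO1 and 48, 47 and 28 in mock, so single libraries of RGS17 and RGS20 carry a large counting error. Groups did not overlap, with a mean of 17.8 ± 1.43 in CDO1 libraries and 40.2 ± 7.5 in mock libraries (SD, n = 3 each), a ratio of 0.444 and a log2 fold change of -1.12 ± 0.24 (SE). Its pseudogene RGS17P1 had 0.986, 4.38 and 2.755 normalised counts in the CDO1 libraries and 0, 0 and 1.131 in the mock libraries. Reads may be shared between RGS17 and RGS17P1, and the effect on the RGS17 ratio was not tested.

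RGS19 (ENSG00000171700, chromosome 20, 64073181 to 64079988), also called GAIP, a regulator of Gi alpha subunits, was the abundant member of the class. It had 467, 504 and 429.8 normalised counts in the CDO1 libraries and 576, 632 and 489 in the mock libraries, and CDO1 replicate 2 lay above mock replicate 3. Means were 467 ± 36.9 with CDO1 and 566 ± 72.2 in mock (SD, n = 3 each), a ratio of 0.825 and a log2 fold change of -0.27 ± 0.09 (SE). RGS19 was no longer past the threshold without CDO1 replicate 1, CDO1 replicate 3, mock replicate 1 or mock replicate 2, with log2 fold changes of -0.27, -0.21, -0.25 and -0.19. The GC content of its longest transcript is 62.3%, and the log2 fold change was -0.18 with each library's trend with GC content removed.

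In the R4 class RGS2 was lower with CDO1, and RGS3 and RGS16 were not. RGS2 (ENSG00000116741, chromosome 1, 192809039 to 192812283), which acts mainly on Gq, had 83.8, 73.4 and 65.2 normalised counts in the CDO1 libraries and 99.5, 92.7 and 118 in the mock libraries. The gap between the groups, from 83.8 in CDO1 replicate 1 to 92.7 in mock replicate 2, was smaller than the spread within either. Means were 74.1 ± 9.33 with CDO1 and 103 ± 12.9 in mock (SD, n = 3 each), a ratio of 0.718 and a log2 fold change of -0.47 ± 0.15 (SE). RGS2 was not past the threshold in the authors' deposited table (log2 fold change -0.38), in DESeq2 on the recovered reads (-0.48), or without CDO1 replicate 2 (-0.47), CDO1 replicate 3 (-0.39), mock replicate 1 (-0.50) or mock replicate 3 (-0.38).

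RGS3 (ENSG00000138835, chromosome 9, 113444731 to 113597743), a regulator of Gi and Gq that also binds G beta and gamma subunits, had 1125, 1226 and 1187 normalised counts in the CDO1 libraries and 1146, 1223 and 1114 in the mock libraries. RGS16 (ENSG00000143333, chromosome 1, 182598623 to 182604408), a regulator of Gi and Gq, had 146, 120.4 and 133 in the CDO1 libraries and 135, 134 and 106 in the mock libraries. For both genes the values of the groups lay among each other. Their log2 fold changes were 0.02 ± 0.06 and 0.09 ± 0.13 (SE), and neither shows that the levels were equal.

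**Figure D2:**
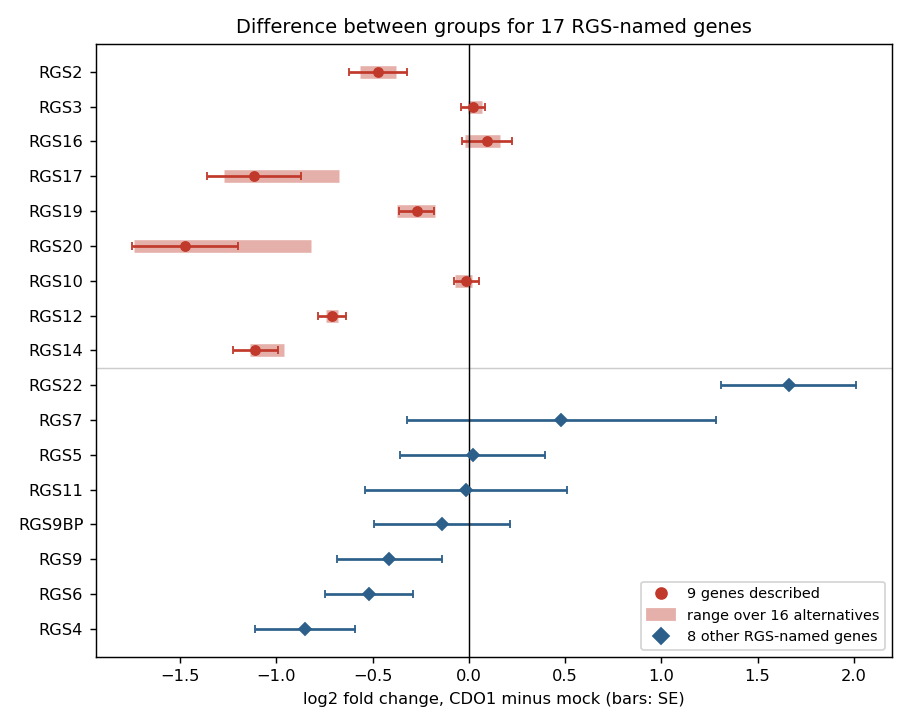
Log2 fold change (CDO1 minus mock) with its SE for the 9 RGS genes (red circles, by class) and 8 other RGS-named genes with a mean of at least 1 (blue diamonds), with pale bars for the range over 16 alternative settings. RGS20 lies at -1.47 and RGS14 at -1.11, RGS3, RGS10 and RGS16 lie between -0.01 and 0.09, and RGS22 is at 1.66.

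Ratios between genes of the same library do not depend on the scaling of that library. RGS12 stood at 0.388, 0.444 and 0.417 of the RGS10 count in CDO1 replicates 1, 2 and 3 and at 0.653, 0.755 and 0.627 in the mock libraries. RGS14 stood at 0.0933, 0.102 and 0.0973 of RGS10 with CDO1, against 0.202, 0.230 and 0.197 in mock, so both ratios were lower in every CDO1 library than in any mock library. The count of RGS14 relative to RGS12 averaged 0.234 ± 0.00595 with CDO1 and 0.310 ± 0.00523 in mock (SD, n = 3 each), again with no overlap.

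Within the RZ class RGS20 averaged 0.0327 ± 0.0119 of the RGS19 count with CDO1 and 0.0760 ± 0.00929 in mock, and RGS17 averaged 0.0385 ± 0.00615 and 0.0707 ± 0.00518 in CDO1 and mock libraries (SD, n = 3 each). Neither ratio overlapped between groups. In the R4 class RGS2 averaged 0.0631 ± 0.0102 of RGS3 with CDO1 and 0.0894 ± 0.0151 in mock, where CDO1 replicate 1 (0.0745) lay just under mock replicate 2 (0.0758). The ratio of RGS16 to RGS3 overlapped, at 0.113 ± 0.0158 with CDO1 and 0.108 ± 0.0114 in mock.

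**Figure D3:**
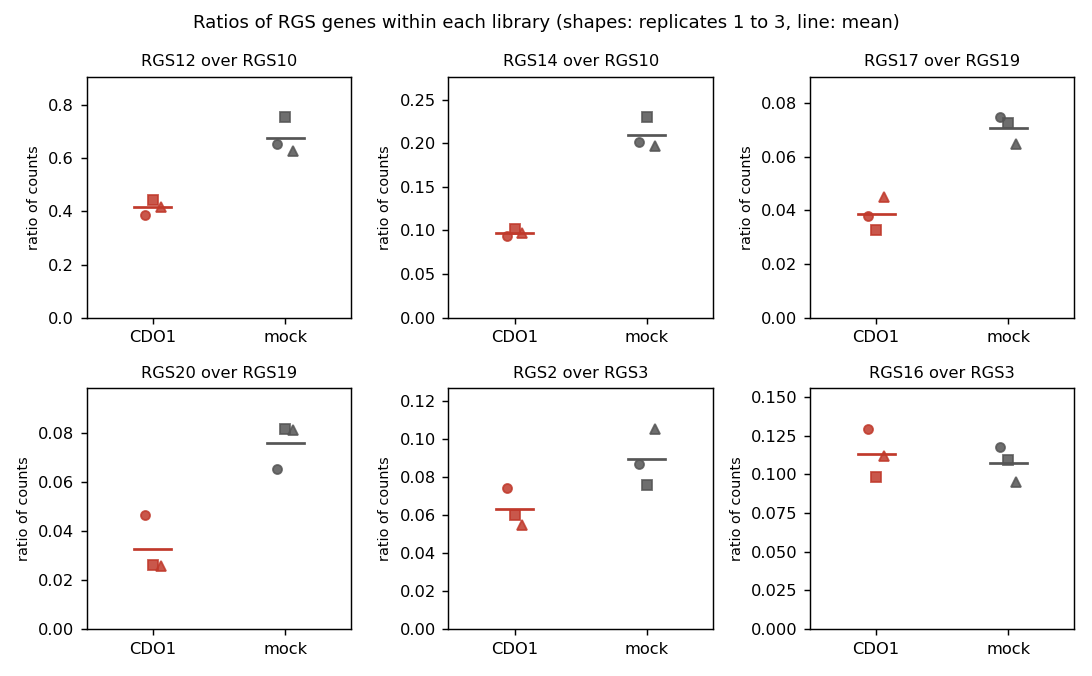
Ratio of normalised counts of a pair of RGS genes within each library, CDO1 to the left of mock, with a shape for each replicate, a line at the group mean and axes from 0. The ratios of RGS12 and RGS14 to RGS10 and of RGS17 and RGS20 to RGS19 lie lower in all 3 CDO1 libraries than in any mock library, and RGS16 to RGS3 overlaps.

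Levels of different genes were compared per kilobase of the union of their annotated exons (GENCODE release 29). On that scale RGS10 was the highest of the 9, at 683 ± 27.5 normalised counts per kilobase with CDO1 and 690 ± 46.1 in mock (SD, n = 3 each), followed by RGS19 at 230.2 ± 18.2 with CDO1 and 279 ± 35.6 in mock and by RGS3 at 85.5 ± 3.69 and 84.2 ± 4.05 in CDO1 and mock libraries. RGS20 and RGS17 were the lowest in both groups, at 4.79 ± 1.77 and 2.26 ± 0.182 with CDO1 and 13.5 ± 2.38 and 5.09 ± 0.949 in mock.

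The order in the middle differed between groups. With CDO1 it ran RGS16 (54.9 ± 5.26 per kilobase), RGS2 (35.4 ± 4.45), RGS12 (25.8 ± 0.726) and RGS14 (21.9 ± 0.0982), with no overlap between neighbours. In mock libraries RGS16 (51.5 ± 6.70), RGS2 (49.3 ± 6.17) and RGS14 (47.6 ± 0.955) overlapped with their neighbours, and RGS12 (42.4 ± 1.55) came below RGS14. RGS3 and RGS12 have annotated exons of 13793 and 13755 bases, so their level per kilobase is too low if KM12 cells use only some of these exons. Summed over the class, the R12 genes reached 731 ± 26.8 per kilobase with CDO1 and 780 ± 44.5 in mock, the RZ genes 237 ± 18.4 and 297 ± 38.3, and the R4 genes 176 ± 5.21 and 185 ± 3.77 in CDO1 and mock libraries (SD, n = 3 each).

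**Figure D4:**
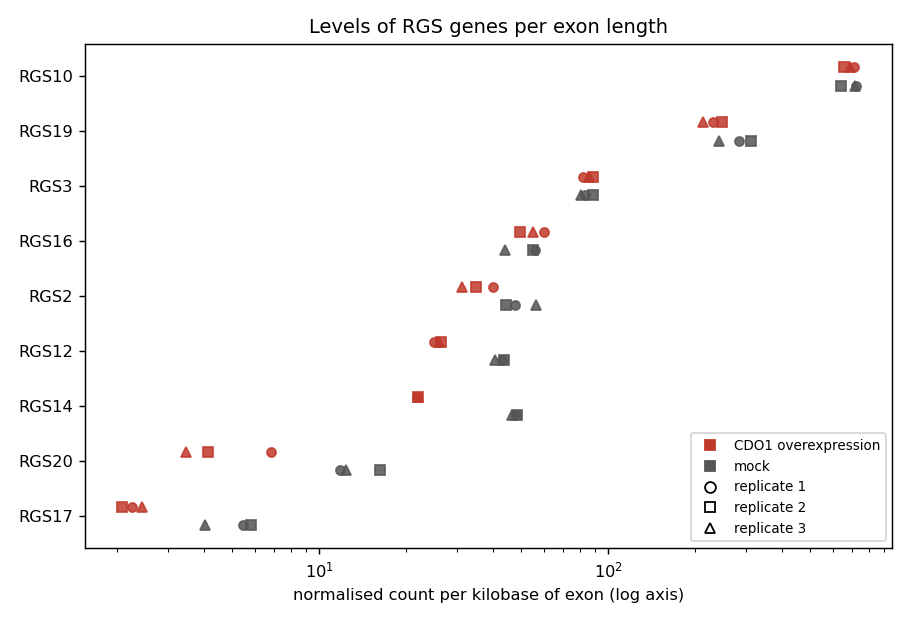
Normalised count per kilobase of annotated exon on a log axis for the 9 RGS genes in each library, ordered by the CDO1 mean, with CDO1 in red above mock in grey and a shape for each replicate. RGS10 averages 683 with CDO1 and 690 in mock, and RGS17 is the lowest at 2.26 and 5.09.

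RGS14 was the gene with a mean of at least 100 and the largest absolute log2 fold change of the 9, and SUSD2, WNT16 and FGF19 were the protein-coding genes whose 6 values followed it most closely. Pearson's r on the log2 scale was 0.9996, 0.9995 and 0.9993 over the 6 libraries, which share their groups, and 209 of 10549 genes compared had an r over 0.99. SUSD2 averaged 146 ± 2.95 normalised counts with CDO1 and 400 ± 17.5 in mock, WNT16 638 ± 6.23 and 1677 ± 16.8, and FGF19 151 ± 1.8 and 408 ± 17.5, in CDO1 and mock libraries (SD, n = 3 each).

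Of 15 other RGS-named genes, 9 were in the table and 8 had a mean of at least 1. Of these 8, 1 passed as higher and 1 as lower, beside 11.3% and 12.7% of all genes. RGS22, an RGS protein outside the main classes, rose to 20.1 ± 3.94 with CDO1, against 5.65 ± 1.17 in mock (SD, n = 3 each), a log2 fold change of 1.66 ± 0.35 (SE, adjusted p = 0.00131 in limma). RGS4, an R4 relative of RGS16 and like it a substrate of ADO, fell to 23.3 ± 7.07 with CDO1, against 42.5 ± 11.1 in mock (log2 fold change -0.85 ± 0.26, adjusted p = 0.0206). RGS4 lost its call in DESeq2 (log2 fold change -0.86) and in the authors' deposited table (-0.50), and without CDO1 replicate 1 (-0.68), CDO1 replicate 2 (-0.79) or mock replicate 3 (-0.66).

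The other 6 did not pass. RGS5, the remaining known ADO substrate of the family, stood at 20.7, 27.4 and 10.1 with CDO1 and 9.86, 20.5 and 27.2 in mock, with groups that overlapped throughout. RGS6, RGS7, RGS9 and RGS11 form the R7 class, which works as a complex with the G beta subunit GNB5. Their log2 fold changes were -0.52, 0.48, -0.41 and -0.01, with group means of at most 38.7 and adjusted p of 0.110 or more, while GNB5 averaged 530 ± 23.8 with CDO1 and 498 ± 24.9 in mock (adjusted p = 0.442). RGS9BP, the membrane anchor of RGS9, stood at 12.1 ± 3.03 and 13.7 ± 4.74 in CDO1 and mock libraries (adjusted p = 0.827), and RGS13 was below the filter.

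Among G alpha subunits, on which RGS proteins act, 5 of 13 tested fell, 1 rose and 7 did not pass. Of all genes, 12.7% were lower and 11.3% higher. The median log2 fold change of these subunits was -0.14 (-0.09 in the authors' deposited table). The fit called 3 lower without CDO1 replicate 1, CDO1 replicate 3, mock replicate 1 or mock replicate 2. GNAI1, a Gi subunit to which the GoLoco motifs of RGS12 and RGS14 bind, fell to 937, 957 and 993 normalised counts in the CDO1 libraries, against 1927, 1923 and 1957 in the mock libraries (log2 fold change -1.01 ± 0.06, adjusted p = 5.27e-11). GNAZ, the Gz subunit served by the RZ class, fell to 71.0, 114 and 91.8, against 188, 193 and 206 in the mock libraries (-1.10 ± 0.14, adjusted p = 7.36e-06). For both genes every CDO1 library was below every mock library.

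RGS14 stood at 0.0865 ± 0.00215 of the GNAI1 count with CDO1 and 0.0933 ± 0.00275 in mock, and RGS12 at 0.369 ± 0.00969 with CDO1 and 0.301 ± 0.0138 in mock (SD, n = 3 each). So relative to GNAI1 the RGS12 count was higher with CDO1, with no overlap between groups. For RGS14 the ratio was slightly lower and also did not overlap. Its counts rest on 76 to 91 reads per CDO1 library and 156 to 203 per mock library, so a difference this small may be counting error. GNAS, the Gs subunit, fell to 12723 ± 411 against 14522 ± 230.2 (-0.19 ± 0.05, adjusted p = 0.00609). GNA14, of the Gq family, rose to 51.7 ± 11.6 against 29.5 ± 10.7 (0.82 ± 0.25, adjusted p = 0.0201), with groups that overlapped, and lost its call in DESeq2 (0.82), in the authors' deposited table (0.51) and without CDO1 replicate 2 (0.67), CDO1 replicate 3 (0.78) or mock replicate 1 (0.65). GNA11 and GNAI2 fell by 0.23 and 0.16 and each lost its call without CDO1 replicate 1 (-0.19 and -0.14), CDO1 replicate 3 (-0.22 and -0.15), mock replicate 1 (-0.23 and -0.16) or mock replicate 2 (-0.14 and -0.11). GNAI3, GNAQ, GNA12 and GNA13 did not pass.

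Of 14 G beta and gamma subunits tested, 4 fell, none rose and 10 did not pass. The shares of all genes were 12.7% lower and 11.3% higher. The median log2 fold change of the 14 was -0.60. That median was -0.28 without CDO1 replicate 1, -0.30 with a pseudocount of 5, -0.17 in edgeR and -0.13 in the authors' deposited table, and 6 fell without mock replicate 2. The 4 that fell were GNG7 (-1.41 ± 0.11, adjusted p = 3.95e-09), GNG4 (-1.54 ± 0.20, adjusted p = 5.20e-06), GNB3 (-1.09 ± 0.21, adjusted p = 0.000706) and GNGT1 (-1.23 ± 0.29, adjusted p = 0.00378). GNG7 had 116, 130.3 and 136 in the CDO1 libraries and 367, 356 and 300 in the mock libraries. The main beta subunits GNB1 and GNB2, at 9733 ± 57.4 and 6854 ± 351 with CDO1 and 10255 ± 68.1 and 6899 ± 422 in mock, did not pass. The groups of GNB1 did not overlap, and those of GNB2 did. With the trend with GC content removed, 6 fell and 1 rose in limma. GNB1 was among those that fell (-0.10, adjusted p = 0.0157), and GNB2 was the gene that rose (0.12, adjusted p = 0.0451). Among those with a mean of at least 10 the median log2 fold change was -0.17 in the fit without that correction.

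Among 15 other proteins with an RGS domain the median log2 fold change was 0.06. Beside 11.3% higher and 12.7% lower of all genes, the test called 4 of them higher and 2 lower and left 9 uncalled. This balance turned to 2 higher and 3 lower with equal library totals and to 3 higher and 4 lower without mock replicate 3, and it was 2 and 2 in DESeq2 and in the authors' deposited table. The median was 0.03 without CDO1 replicate 1, without mock replicate 1 and with equal library totals, and 0.09 without CDO1 replicate 2. AXIN2, the Wnt pathway scaffold whose RGS domain binds APC and not G proteins, rose to 7858 ± 96.2 against 6145 ± 135 (0.35 ± 0.05, adjusted p = 9.84e-06). ARHGEF12, an exchange factor driven by G12 family subunits, rose by a log2 fold change of 0.19 ± 0.05 (adjusted p = 0.010) and lost its call without CDO1 replicate 3 (0.16) or mock replicate 1 (0.19). SNX14, a sorting nexin, had 0.18 ± 0.06 (adjusted p = 0.0346), and its call ended in DESeq2 (0.19), in the authors' deposited table (0.18), with equal library totals (0.16) and without CDO1 replicate 1 (0.15), CDO1 replicate 3 (0.19), mock replicate 1 (0.19) or mock replicate 2 (0.15). GRK5, a kinase of active receptors, fell to 84.96 ± 9.11 against 125 ± 7.87 (-0.56 ± 0.13, adjusted p = 0.00378). The count passing in this list was 3 without CDO1 replicate 1 and 2 without CDO1 replicate 3 or mock replicate 1.

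Among 13 modulators of G alpha subunits and arrestins, 4 fell, 3 rose and 6 did not pass. All genes gave 12.7% lower and 11.3% higher. The median log2 fold change of the 13 was -0.08. Leaving out 1 library moved that median to between -0.15 (without mock replicate 2) and -0.01 (without CDO1 replicate 1), with -0.03 without mock replicate 3, and it was -0.14 with the GC trend removed. GPSM1, which holds GoLoco motifs like RGS12 and RGS14, fell to 529, 505 and 515 in the CDO1 libraries, against 917, 1141 and 719 in the mock libraries (-0.82 ± 0.11, adjusted p = 8.44e-06). RAP1GAP, a Rap inactivator that binds Gi and Gz alpha subunits, fell to 357 ± 2.18 against 459 ± 28.3 (-0.36 ± 0.08, adjusted p = 0.00144). GPSM2, the GoLoco protein of the mitotic spindle, rose to 1712 ± 89.3 against 1441 ± 78.9 (0.25 ± 0.06, adjusted p = 0.00422), so GoLoco genes did not all go in the same direction. ARRB2, beta-arrestin 2, fell to 641 ± 33.3 against 959 ± 22.3 (-0.58 ± 0.06, adjusted p = 8.99e-07). ARRB1, beta-arrestin 1, went the other way, to 1179 ± 16.8 against 999 ± 10.9 (0.24 ± 0.06, adjusted p = 0.00379). RIC8A, a chaperone and exchange factor of G alpha subunits, rose to 4895 ± 200.3 against 4112 ± 262 (0.25 ± 0.06, adjusted p = 0.00189).

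Of 17 effectors tested, 6 fell, 2 rose and 9 did not pass, beside 12.7% lower and 11.3% higher of all genes. Their median log2 fold change was -0.11. The median was -0.06 without CDO1 replicate 2, -0.17 without mock replicate 2, -0.22 in DESeq2, -0.05 in the authors' deposited table and -0.03 where the minimum mean was 10. The phospholipases C beta, which Gq switches on, gave 1 higher, 2 lower and 1 that did not pass. PLCB4 rose to 1089 ± 69.9 against 772 ± 31.1 (0.49 ± 0.07, adjusted p = 8.69e-06), and PLCB1 fell to 94.7 ± 13.8 against 150.2 ± 8.65 (-0.67 ± 0.13, adjusted p = 0.000768). PLCB3 fell to 3998 ± 256 against 4713 ± 296 (-0.24 ± 0.06, adjusted p = 0.00462), and PLCB2 did not pass (adjusted p = 0.389). ADCY9, an adenylyl cyclase, fell by 0.40 (SE 0.09, adjusted p = 0.00169) on the log2 scale.

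Of 76 receptors listed, 58 were in the table and 51 were tested. Of these, 14 fell, 4 rose and 33 did not pass, beside 12.7% lower and 11.3% higher of all genes, with a median log2 fold change of -0.18. The median was -0.30 without CDO1 replicate 3, -0.27 in DESeq2 and -0.05 in the authors' deposited table. NTSR1, the Gq-coupled neurotensin receptor and the most abundant in mock libraries of those that passed, fell to 1559, 1637 and 1525 in the CDO1 libraries, against 4844, 5688 and 4190 in the mock libraries (-1.63 ± 0.08, adjusted p = 5.87e-12). LPAR3, a receptor for lysophosphatidic acid, fell to 93.5 ± 5.30 against 281 ± 12.6 (-1.58 ± 0.11, adjusted p = 8.29e-10), and ADORA1, the Gi-coupled adenosine receptor, fell to 72.0 ± 11.3 against 168 ± 10.6 (-1.22 ± 0.14, adjusted p = 1.03e-06). BDKRB2, a Gq-coupled bradykinin receptor, rose to 318 ± 23.7 against 165 ± 18.5 (0.94 ± 0.10, adjusted p = 7.67e-07). OPRL1, the nociceptin receptor gene next to RGS19, stood at 27.1 ± 5.23 and 39.4 ± 12.6 in CDO1 and mock libraries and did not pass (limma, adjusted p = 0.201).

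**Figure D5:**
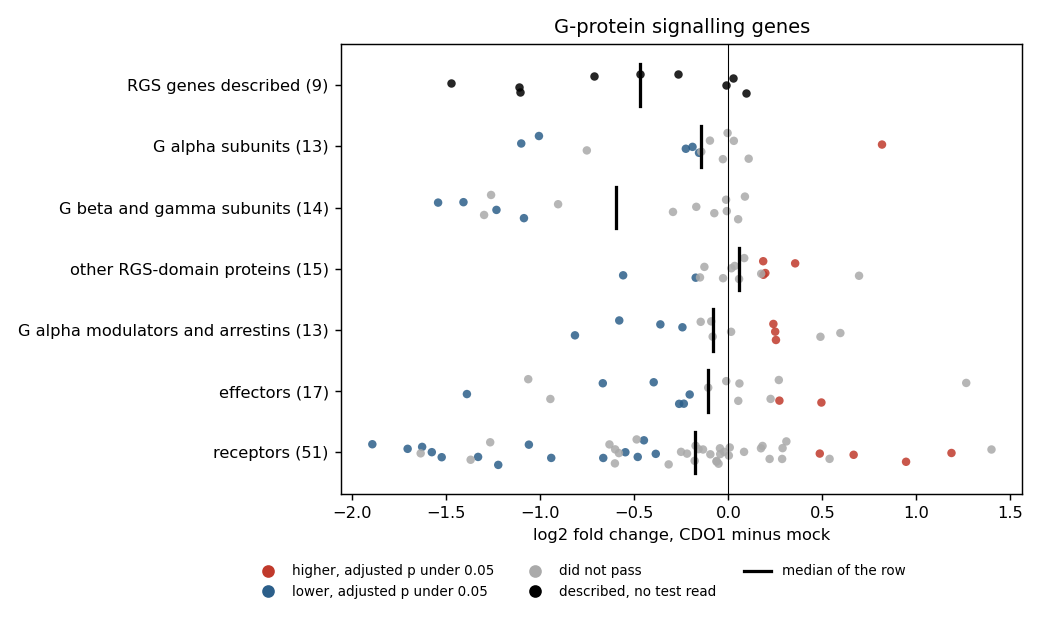
Log2 fold change (CDO1 minus mock) of the 9 RGS genes (black, no test read) and of tested members of 6 lists of G-protein signalling genes, with the number of genes in parentheses, red for genes called higher and blue for genes called lower by limma (adjusted p under 0.05), grey for genes that did not pass and a bar at each median. The medians run from -0.60 for G beta and gamma subunits to 0.06 for other RGS-domain proteins, and among receptors 14 points are blue and 4 red.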

How the data were processed

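The table holds 6 libraries of KM12 cells, 3 labelled as overexpressing CDO1 and 3 as mock. Per the submitters' processing notes, the authors' tools include STAR (2.5.1b), GRCh38 as build, and DESeq2 (version 1.10.1). How reads were counted, and whether by strand, is not given in the sources used here, so reads of overlapping or antisense genes may not have been told apart. The deposited signal columns hold reads per gene over a size factor of each library. Division by a library's smallest value above 0 returned whole reads, to within 0.001, for 100% of values. The log2 fold change, p-value and adjusted p-value in the authors' deposited table are their own comparison. Those log2 fold changes are smaller in size for scarce genes such as RGS17 (-0.67, against -1.17 in DESeq2 on the recovered reads). For CDO1 itself the deposited log2 fold change is 0.0892, beside a ratio of means of 105. Its adjusted p in the authors' deposited comparison is 0.416, so their adjusted p leaves CDO1 uncalled. So the deposited log2 fold change is not on the scale of the other fits, in single genes or in list medians.

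The members and lists were chosen with earlier results of these data known. Genes named are the 9 RGS genes, other RGS genes with a mean of at least 1, and up to 4 genes of each list with the smallest p, others being free to be named with values. The fit was limma 3.58.1 (trend, R 4.3.3) on the log2 scale with a pseudocount of 1, over the 21775 genes whose mean reached 1, with Benjamini-Hochberg adjustment at 0.05 and no covariate. It was tested on simulated data. Fold values are ratios of mean normalised counts, and scarce genes have log2 fold changes that are too small on this scale. Alternatives were edgeR 4.0.16 (quasi-likelihood, TMM) and DESeq2 1.42.0 on the recovered reads, other filters and pseudocounts, scaling to equal totals, a GC correction by lowess within libraries (span 0.3), the authors' adjusted p, a minimum fold change, a replicate block and each library left out. Names came from a reference table that holds 26577 of the 27134 identifiers and exon lengths, coordinates and GC content from GENCODE release 29, which holds 26742. Upstream sequences are from RefSeq on GRCh38.p14. Reads are not independent molecules, since no molecular identifiers were used. Protein sequences were not used here.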

Additional observations from a re-analysis of the deposited data

How the results depend on the processing

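Of the 9 RGS genes 6 passed the threshold, and 5 or 6 did under the other filters, pseudocounts, scalings, tools and the authors' deposited adjusted p, and 4 to 5 with a library left out (4 without CDO1 replicate 3 or mock replicate 1). The calls lost were those of RGS2 and RGS19. With a log2 fold change of at least 1 in size as well, 3 remained (RGS14, RGS17 and RGS20). All 21775 genes tested then gave 1159 in place of 5229. The 6 G-protein lists, with 123 genes tested, gave 16 in place of 49, and other RGS genes 1 in place of 2. Other RGS genes gave 1 in DESeq2 and in the authors' deposited table, and 1 to 2 with a library left out. Over all genes, leaving out a library gave 4002 to 5492 calls, and in the 6 lists 39 to 50. RGS12, RGS14, RGS17 and RGS20 were below 0 and past the threshold in each of 16 alternatives, with log2 fold changes of -0.74 to -0.68, -1.13 to -0.96, -1.27 to -0.67 and -1.74 to -0.82. The alternatives reuse the libraries with which the 9 genes were picked. Passing in them describes dependence on the processing and is no independent support for a difference. The ends of -0.96, -0.67 and -0.82 for RGS14, RGS17 and RGS20 are the authors' deposited values. DESeq2 on the recovered reads gave -1.12, -1.17 and -1.49 for these genes. The signs of RGS3, RGS10 and RGS16, none of which passed anywhere, were not stable. The balance of calls over all genes was 2467 higher and 2762 lower, and 2068 and 3079 with equal library totals. With the replicate block 5918 genes, 6 of the 9 RGS genes and 52 in the lists passed. Deviations from the group mean of same-numbered libraries correlated at 0.0149, 0.0847 and -0.00247 for replicates 1, 2 and 3. Pairs with different numbers had correlations of -0.0577 to 0.0448. With 3 libraries per group these values cannot tell whether the numbers pair the samples. Reads of 12 to 53 per library limit what RGS17 and RGS20 can show.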
